A study of Mus musculus with 12 samples.

Results

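The class A Eph receptors *Epha3*, *Epha4*, *Epha5*, *Epha6*, *Epha7* and *Epha8* and the class A ephrins *Efna2*, *Efna3*, *Efna4* and *Efna5* were followed in the ventral spinal cord of the mouse. The 10 genes were taken from a fixed list of names, and all 10 of the 45777 gene identifiers concerned were found by their NCBI Gene ID in each library. Bulk RNA-seq had been made at E12.5 from ventral tissue that was trimmed around the *Hb9::GFP* reporter, so the embryos carried this MN reporter and the tissue held MNs together with their neighbours. Heterozygote (Isl2 +/-) and *Isl2* KO (Isl2 -/-) embryos gave 3 libraries each at the brachial level, which innervates the forelimb, and 3 each at the lumbar level, which innervates the hindlimb. The KO allele carries a neomycin cassette in place of part of the gene and is lost in all cells, not in MNs alone. No *Isl2* +/+ embryos were included, so the comparison is of no intact copy with 1 intact copy.

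Eph receptors are receptor tyrosine kinases, and ephrins are ligands held at the membrane, so that signals pass where cells touch. Class A ephrins are attached by a lipid (GPI) anchor and bind mainly the class A receptors, and contact usually repels the growing axon that carries the receptor. In limb-innervating MNs of the LMC, EphA4 is known for directing lateral LMC axons into the dorsal limb, away from ephrin-A in the ventral limb, and EphA3 and EphA4 on axial motor axons for keeping these apart from sensory axons. Class A ephrins made by the MNs themselves can also dampen the receptors on the same axon.

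Levels are given as TPM, a share of all transcripts that is scaled to gene length and library total, after rescaling of each library by 1 size factor. Depth was 4.48 to 6.64 aligned gigabases a library, and between 22983 and 24191 genes had values above 0. Brachial KO replicate 3 was the shallowest library and stood furthest from the others of its level, with an SD of deviations of 0.552 on the log2 scale against 0.364 to 0.465 in the other libraries. *Isl2* was lower in the KO libraries, at 5.91 ± 1.40 TPM against 8.89 ± 0.713 in heterozygotes in brachial cord and 7.34 ± 0.850 against 9.36 ± 0.937 in lumbar cord (SD, n = 3). Its log2 difference was -0.61 in brachial (adjusted p = 0.357, limma) and -0.35 in lumbar cord (adjusted p = 0.999, limma). Its value covers the whole gene, also the exons that the KO allele keeps. From *Xist* and Y-linked genes, 7 libraries were male and 5 female. The heterozygote libraries held 2 males of 3 at the brachial level and 1 of 3 at the lumbar level, so these cannot all come from the same 3 embryos. The KO libraries held 2 males of 3 at both levels. The dissections are described as taken from 3 embryos of each genotype, so brachial and lumbar libraries may share embryos, and no label says which do. The tests between the levels treat the 12 libraries as separate samples, and their p-values do not allow for shared embryos. MN markers were found in every library. So were markers of other tissues: the summed TPM was 2066 to 6038 for 6 blood genes, 36.5 to 54.2 for 8 of mesenchyme and cartilage, 15.2 to 26.0 for 5 of Schwann cells and neural crest, 12.2 to 18.8 for 5 of sensory neurons and 0.826 to 2.11 for 6 of skeletal muscle, of which *Myod1* was at 0 throughout. In bulk tissue, fewer cells of a type and less RNA per cell cannot be told apart.

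The promoters of 4 members are shown because the results turn on these genes: *Epha3*, *Epha6* and *Efna4* differed between the limb levels, and *Epha4* was the most abundant member and did not. Each line gives the 250 bases before a RefSeq transcript start on build GRCm38.p6, read 5′ to 3′ on the gene's own strand, with CpG dinucleotides in capitals. The *Epha6* window, at chr16:60605532-60605781 on the minus strand, lies inside the span of the gene, before the start of one of its shorter transcripts. The others are at chr16:63864176-63864425 for *Epha3*, chr3:89338029-89338278 for *Efna4* and chr1:77515089-77515338 for *Epha4*, all on the minus strand.
Epha3: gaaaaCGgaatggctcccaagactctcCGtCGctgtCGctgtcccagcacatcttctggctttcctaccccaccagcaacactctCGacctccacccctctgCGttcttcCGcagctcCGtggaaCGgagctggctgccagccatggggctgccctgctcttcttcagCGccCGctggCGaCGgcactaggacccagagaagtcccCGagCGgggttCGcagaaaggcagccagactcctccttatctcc
Epha6: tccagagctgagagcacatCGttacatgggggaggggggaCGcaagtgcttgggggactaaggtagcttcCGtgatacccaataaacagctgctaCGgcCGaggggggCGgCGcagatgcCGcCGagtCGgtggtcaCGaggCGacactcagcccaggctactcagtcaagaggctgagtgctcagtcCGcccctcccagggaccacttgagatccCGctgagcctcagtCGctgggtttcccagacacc
Efna4: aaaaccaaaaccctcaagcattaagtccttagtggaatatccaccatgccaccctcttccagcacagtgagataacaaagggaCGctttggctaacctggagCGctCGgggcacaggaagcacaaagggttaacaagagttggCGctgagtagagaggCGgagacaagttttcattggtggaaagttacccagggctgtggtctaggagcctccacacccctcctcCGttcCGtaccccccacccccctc
Epha4: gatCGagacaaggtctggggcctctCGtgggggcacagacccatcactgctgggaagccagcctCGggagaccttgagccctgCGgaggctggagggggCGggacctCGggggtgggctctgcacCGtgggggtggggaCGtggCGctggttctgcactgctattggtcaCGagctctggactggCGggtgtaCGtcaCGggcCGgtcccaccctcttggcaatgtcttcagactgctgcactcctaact

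The *Epha3*, *Epha6* and *Epha4* windows held 16, 15 and 14 CpG dinucleotides and the *Efna4* window 7, against a median of 6 over 32851 windows of all genes. Of all windows, 74.6%, 72.7%, 70.6% and 53.7% held fewer than these, in the same order. The letters TAAT, a core shared by many homeodomain factors such as the LIM-HD proteins, were searched as TAAT or ATTA, and TTTAT, a core known for posterior Hox proteins, as TTTAT or ATAAA, so that both strands were read. TAAT was found 1 time in the *Efna4* window and not in the other 3, while 54.9% of all windows held it. TTTAT was found 1 time in the *Epha6* window and not in the other 3, while 37.3% of all windows held it. *Epha3* and *Epha6* lie on the same strand of chromosome 16, 2.93 Mb apart, and *Efna3* and *Efna4* lie 9.34 kb apart on chromosome 3.

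All 10 members were detected in all 12 libraries and passed the filter on low values (a mean of at least 0.5 TPM). *Epha4* was the highest, at a mean of 110 TPM over the 12 libraries, and did not overlap in range with any other member. *Epha3* followed at 45.2 TPM, *Efna3* at 36.8 and *Epha5* at 30.1. The ranges of *Epha3* and *Efna3* overlapped, as did those of *Efna3* and *Epha5*, and *Epha3* was above *Efna3* in 6 of 12 libraries. The middle of the order was held by *Epha7* at 22.2 TPM and *Efna2* at 22.0, which did not differ beyond their spread and changed places from library to library. *Efna4* lay below them at 9.56 TPM and *Efna5* at 4.90, and their ranges overlapped. *Epha6* at 1.96 TPM and *Epha8* at 1.91 were the lowest, overlapped each other and lay below all values of *Efna5*.

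*Epha4* alone made up a mean of 52.3% of the summed TPM of the 6 receptors (44.9% to 56.8% over the libraries), and *Epha3* 21.0% (12.7% to 32.0%). *Efna3* made up 50.2% of the sum of the 4 ephrins and *Efna2* 30.1%. Receptor transcripts exceeded ephrin transcripts in every library, with a ratio of the sums of 2.86 ± 0.207 in brachial and 2.95 ± 0.319 in lumbar libraries (SD, n = 6, exact permutation p = 0.582, two-sided).

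**Figure D1:**
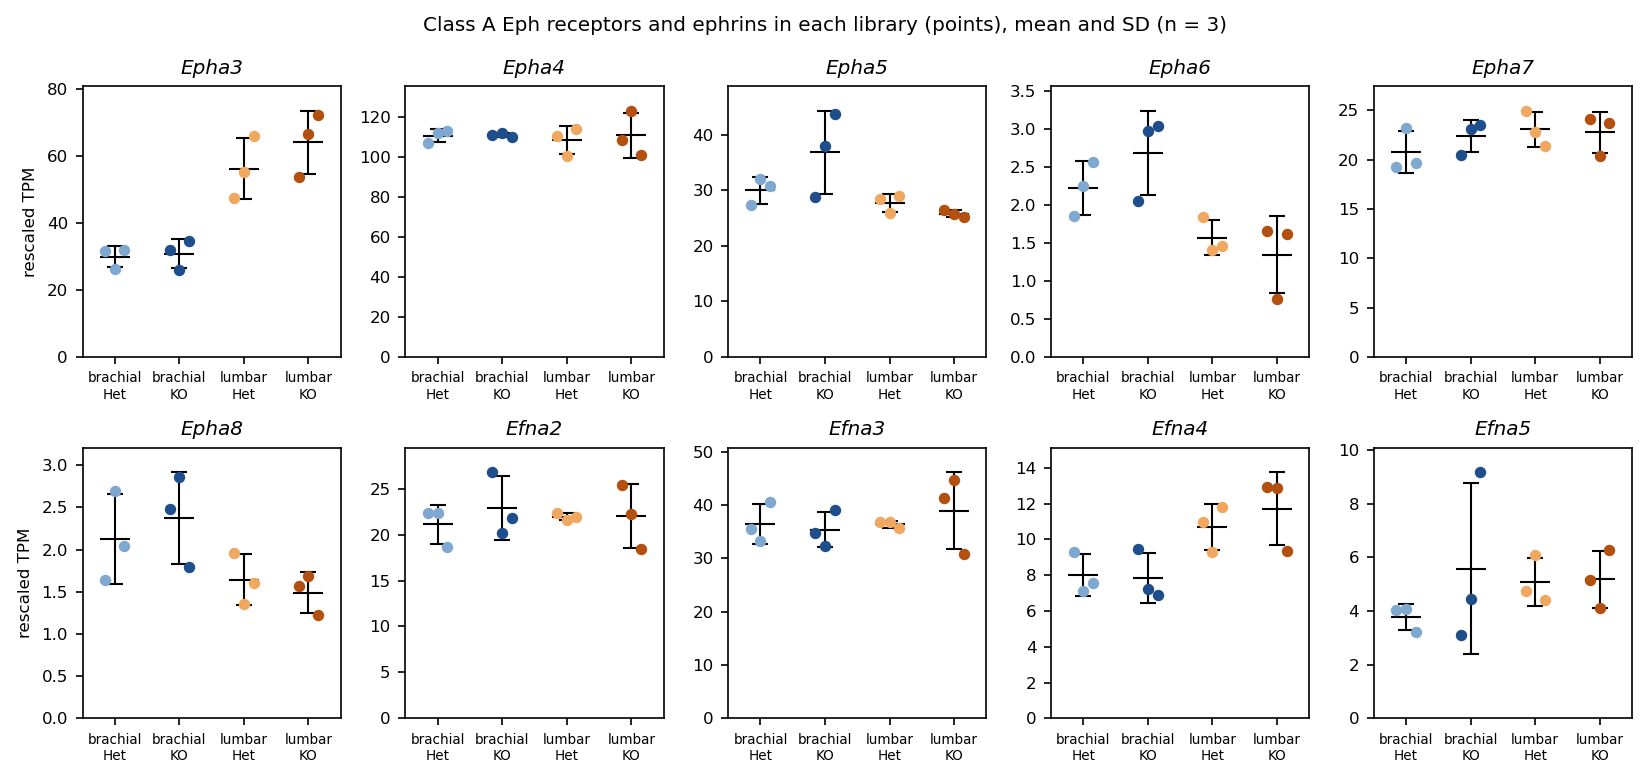
Rescaled TPM (y axis, from 0) of each member in the 4 groups (x axis); each point is a library, and the bars give the mean and SD (n = 3). *Epha3* rises from 26.1 to 34.7 TPM at the brachial level to 47.6 to 72.1 at the lumbar level, and *Epha4* stays between 101 and 123 TPM throughout.

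The order by TPM rests on how StringTie treated the transcripts of a gene. The mean base coverage of a gene, deposited beside TPM, was set against the library's usual ratio of coverage to FPKM. For *Epha3*, *Epha4*, *Epha8*, *Efna2* and *Efna4* it lay between 0.934 and 1 times the usual ratio, so both columns describe the same amount. For *Epha5* it was 0.786 to 0.825 times, for *Efna3* 0.566 to 0.745, for *Epha7* 0.541 to 0.606, for *Epha6* 0.232 to 0.398 and for *Efna5* 0.064 to 0.0647. By mean coverage *Efna5* was therefore the lowest of the members, below *Epha6*, with at most 1.31 reads over a base on average in any library. Comparisons of a gene with itself between libraries do not rest on this ratio where it is steady, as it was for *Efna5*, but do where it varied, as for *Epha6* and *Efna3*.

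The first comparison was of the lumbar with the brachial level over all 12 libraries with genotype as a covariate (limma). *Epha3* was higher and *Epha6* lower at the lumbar level past the study's threshold, a log2 fold change beyond 0.5 with an unadjusted p under 0.05. These are 2 of 10 members, against 10.3% of 16698 genes tested (4.43% higher and 5.9% lower). By an adjusted p under 0.05, *Epha3* and *Efna4* were higher and *Epha6* lower, which is 3 of 10 members against 18.5% of all genes (8.91% higher and 9.62% lower), and with 10 members these shares do not set the family apart from the background. The levels of 2 members did not overlap between the limb levels, against 8.31% of all genes. At an unadjusted p under 0.05 the members numbered 5 of 10, against 32.2% of all genes. The median difference was 0.03 on the log2 scale over the members and 0.01 over all genes.

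*Epha3*, a receptor of axial motor axons and of subsets of limb MNs, was measured at 31.4, 26.3 and 31.9 TPM in the brachial heterozygotes and 31.8, 26.1 and 34.7 in the brachial KO libraries. At the lumbar level it was at 47.6, 55.2 and 65.9 TPM in the heterozygotes and 53.6, 66.5 and 72.1 in the KO libraries. Every lumbar library was above every brachial library, in both genotypes. The lumbar mean was 60.1 and the brachial mean 30.4 TPM, a ratio of 1.98, and the log2 difference was 0.98 ± 0.10 (SE, limma, adjusted p = 9.7e-05). The exact permutation test over 6 against 6 libraries gave p = 0.00216 (two-sided), the smallest it can give. The difference was 0.90 in heterozygotes alone (adjusted p = 0.0156, limma) and 1.05 in KO alone (adjusted p = 0.0274, limma).

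*Epha6*, a receptor known mainly from the nervous system, was low everywhere. It was at 1.85, 2.25 and 2.57 TPM in the brachial heterozygotes, 2.05, 2.98 and 3.04 in the brachial KO, 1.84, 1.41 and 1.46 in the lumbar heterozygotes and 1.66, 0.76 and 1.61 in the lumbar KO libraries. All lumbar values were below all brachial ones, with the nearest libraries at 1.84 and 1.85. The log2 difference was -0.74 ± 0.20 (SE, limma, adjusted p = 0.0254), and the exact permutation test gave p = 0.00216 (two-sided). Its size depended on the low level of the gene: with a pseudocount of 1 in place of 0.1 the difference was -0.50, just inside the threshold, and in heterozygotes alone the adjusted p was 0.24 (limma). Without brachial KO replicate 2 the difference was -0.67 (adjusted p = 0.0649, limma).

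*Efna4*, a ligand of class A receptors, was at 9.31, 7.10 and 7.57 TPM in the brachial heterozygotes and 9.47, 7.20 and 6.87 in the brachial KO libraries, and at 10.97, 9.27 and 11.83 in the lumbar heterozygotes and 12.92, 12.87 and 9.36 in the lumbar KO libraries. The levels overlapped in the range from 9.27 to 9.47 TPM. The log2 difference was 0.49 ± 0.12 (SE, limma, adjusted p = 0.0117), just short of the fold threshold, with an exact permutation p of 0.0108 (two-sided). Within the genotypes it was 0.42 in heterozygotes (adjusted p = 0.150, limma) and 0.57 in KO (adjusted p = 0.113, limma), so the call by adjusted p held only over both. Its neighbour *Efna3* had a difference of 0.06 (adjusted p = 0.664, limma).

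*Epha5* and *Epha8*, receptors of neurons in many parts of the nervous system, had lower lumbar means but did not pass an adjusted p of 0.05. *Epha5* had a mean of 26.7 TPM at the lumbar and 33.4 at the brachial level, a log2 difference of -0.30 ± 0.10 (SE, limma, adjusted p = 0.0541, exact permutation p = 0.0108, two-sided). *Epha8* had means of 1.57 and 2.25 TPM, a log2 difference of -0.48 ± 0.17 (SE, limma, adjusted p = 0.0624, exact permutation p = 0.0152, two-sided). Both sat near this limit: *Epha5* came under it without brachial Het replicate 1, brachial KO replicate 1 or lumbar Het replicate 1, with embryo sex as a covariate, with TPM as deposited or with quantile normalization, the lowest adjusted p (limma) being 0.0316, and *Epha8* without brachial Het replicate 1, brachial KO replicate 3 or lumbar Het replicate 1 or with coverage in place of TPM, the lowest being 0.0356. In the KO libraries both were lower at the lumbar level without overlap, by log2 differences of -0.49 (adjusted p = 0.102, limma) and -0.63 (adjusted p = 0.182, limma), while in the heterozygotes the levels overlapped, with differences of -0.11 and -0.34. With only 3 against 3 libraries, the levels of 29.2% of all genes did not overlap in KO alone, where 4 of 10 members did not, and of 25.9% in heterozygotes alone, where 3 of 10 members did not. Whether these differences between genotypes go beyond the spread is answered by the difference of the KO effects between levels, given with the genotypes.

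For *Epha4*, *Epha7*, *Efna2*, *Efna3* and *Efna5* no difference between the levels was found. The precision was best for *Epha4*, whose log2 difference was -0.02 with a 95% interval from -0.13 to 0.09, a range that lies well inside the threshold. The intervals were -0.07 to 0.24 for *Epha7*, -0.19 to 0.20 for *Efna2* and -0.13 to 0.25 for *Efna3*. *Efna5* was the least certain, at 0.21 with an interval from -0.26 to 0.69. In the heterozygotes *Efna5* was one of the 3 members without overlap, against the 25.9% of all genes, at 4.74, 6.09 and 4.42 TPM against 4.05, 4.09 and 3.23, a log2 difference of 0.41 (adjusted p = 0.224, limma), and in the KO libraries the difference was 0.02. Without brachial KO replicate 3, which had the highest value of all, the difference over both genotypes was 0.42 (adjusted p = 0.0566, limma).

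**Figure D2:**
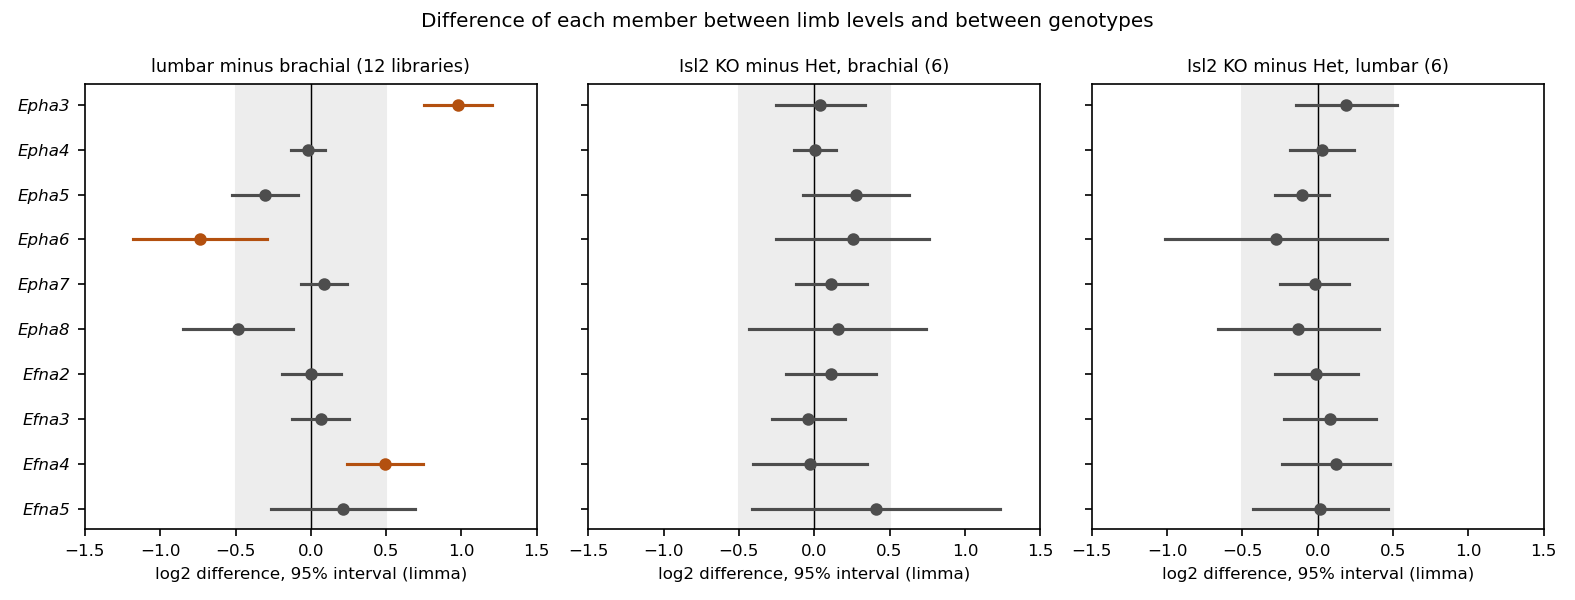
Log2 difference (x axis) of each member between the levels (left) and between *Isl2* KO and heterozygote at the brachial (middle) and lumbar (right) level; points are limma estimates, lines 95% intervals, grey the span from -0.5 to 0.5, and orange an adjusted p under 0.05. *Epha3*, *Epha6* and *Efna4* are orange in the left panel, and no member is orange in the other 2.

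The sum over the 6 receptors was 223 ± 11.8 TPM at the lumbar and 201 ± 9.39 at the brachial level (SD, n = 6, exact permutation p = 0.00866, two-sided), a log2 difference of 0.15. This difference was not seen in TPM as deposited, without the size factors, where it was 0.0066 (exact permutation p = 0.931, two-sided). Of the 6 receptors, only *Epha3* (60.1 against 30.4 TPM) and *Epha7* (22.9 against 21.6) had a higher lumbar mean, and 4 had a lower one. The share of *Epha3* in the receptor sum rose from a range of 12.7% to 16.7% at the brachial level to a range of 22.1% to 32.0% at the lumbar level, a measure that the size factors do not touch. The 4 ephrins summed to 76.0 ± 7.41 and 70.5 ± 4.66 TPM (SD, n = 6, exact permutation p = 0.162, two-sided).

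**Figure D3:**
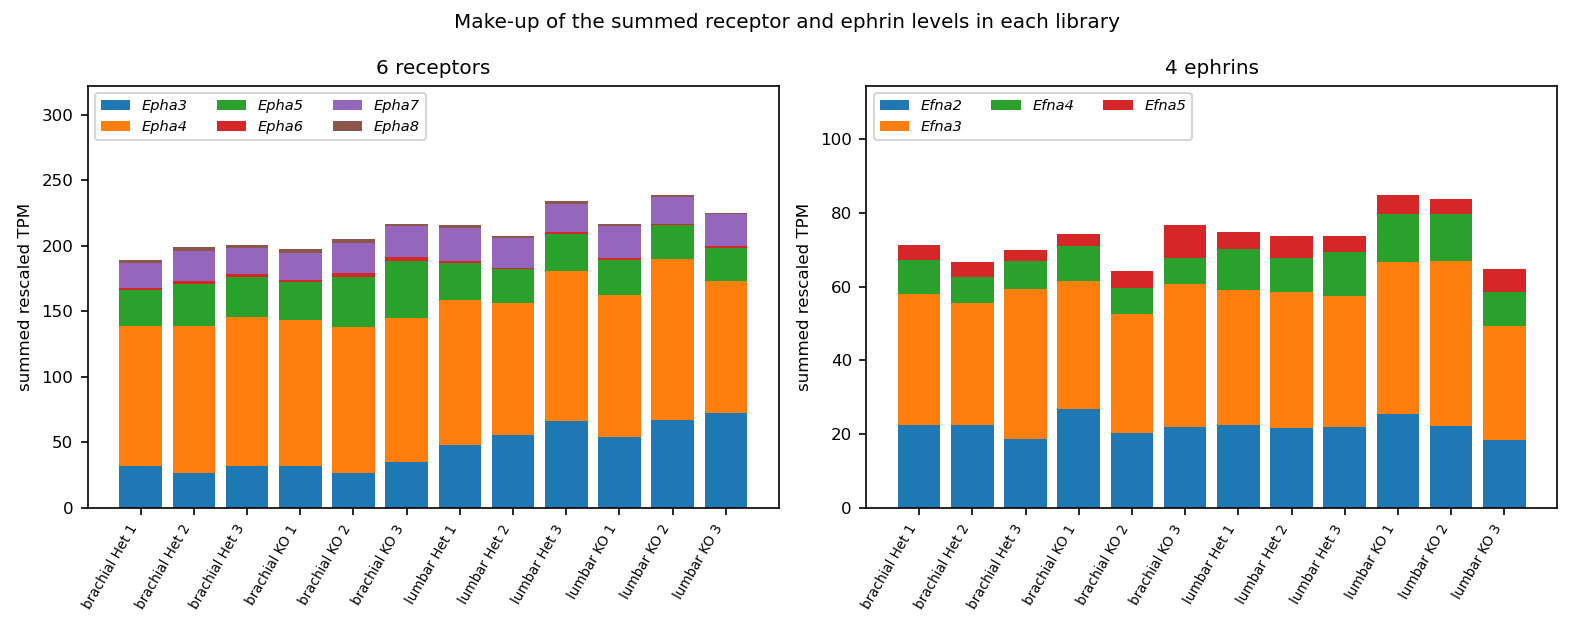
Summed rescaled TPM (y axis, from 0) of the 6 receptors (left) and the 4 ephrins (right) in each of the 12 libraries (x axis), divided by gene. *Epha4* is the broadest receptor segment in every library, and the *Epha3* segment grows from at most 34.7 TPM in the brachial to at least 47.6 TPM in the lumbar libraries.

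Summed levels of several marker lists lay in different ranges at the limb levels. The ranges of some lists overlapped, and the sums were not tested between the levels. The summed TPM of the 5 progenitor markers was 384 to 500 in the lumbar and 261 to 366 in the brachial libraries. Its members did not move together: *Sox2*, *Nes* and *Hes5*, of neural progenitors in general, were higher at the lumbar level by log2 differences of 0.38, 0.42 and 0.52, *Olig2*, of MN progenitors, was lower by -0.73 (adjusted p = 0.00866, limma), and *Nkx2-2* (-0.26) did not pass the test. That of the 8 MN markers was 185 to 314 and 430 to 506, and within this list *Prph* was lower at the lumbar level by a log2 difference of -2.62 and *Slc5a7* by -1.10, while *Chat* (0.16), *Mnx1* (0.25) and *Isl1* (0.09) did not pass the test. The 5 LMC markers summed to 109 to 165 TPM at the lumbar and 162 to 213 at the brachial level. Of these *Etv4* (-1.60) and *Aldh1a2* (-0.49) were lower at the lumbar level by an adjusted p under 0.05, and *Foxp1* (-0.09), *Lhx1* (0.14) and *Etv1* (0.07) did not pass the test. The 5 ventral interneuron markers summed to 26.6 to 44.6 and 19.4 to 31.5 TPM, the 5 endothelial markers to 46.4 to 59.8 and 56.6 to 78.4, and the 4 microglial markers to 5.31 to 11.9 and 11.3 to 19.4. The 9 dorsal interneuron markers summed to 25.9 to 50.8 and 39.9 to 59.5 TPM. Of these *Lhx9* (0.95) was higher and *Barhl1* (-0.91) and *Barhl2* (-0.96) were lower at the lumbar level by an adjusted p under 0.05 (limma). The 7 markers of dorsal progenitors and roof plate summed to 20.9 to 33.0 and 16.5 to 28.6 TPM. *Erbb3*, of the Schwann cell and neural crest list, was lower by -1.64 (adjusted p = 0.0038, limma). The part of these lists in the differences of *Epha3*, *Epha6* and *Efna4* was not tested.

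The genes whose levels followed *Epha3* most closely over the 12 libraries were *Ttf2* (Pearson r = 0.985), *Ccnf* (0.980), *Mcoln3* (0.978), *Shcbp1* (0.977) and *Cdc45* (0.973), out of 13269 protein-coding genes. *Ccnf* encodes cyclin F and *Cdc45* a replication factor, and both are known from dividing cells. Since the libraries form separate sets by level, r was also taken within each level of 6 libraries: for *Shcbp1* it was 0.923 in brachial and 0.980 in lumbar libraries, and for *Cdc45* 0.804 and 0.961. All genes of a library share its level, depth and size factor, and these correlations are a description. *Epha4* was followed most closely by *Gpi1* (0.927), *Grhpr* (0.883) and *Id2* (0.876), but within the brachial libraries these r were 0.138, 0.427 and 0.290, against 0.989, 0.933 and 0.930 within the lumbar ones. *Efna3* was followed by *Mknk2* (0.914), *Cops6* (0.907) and *Apba2* (0.875), with r of 0.793 to 0.925 within the levels.

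**Figure D4:**
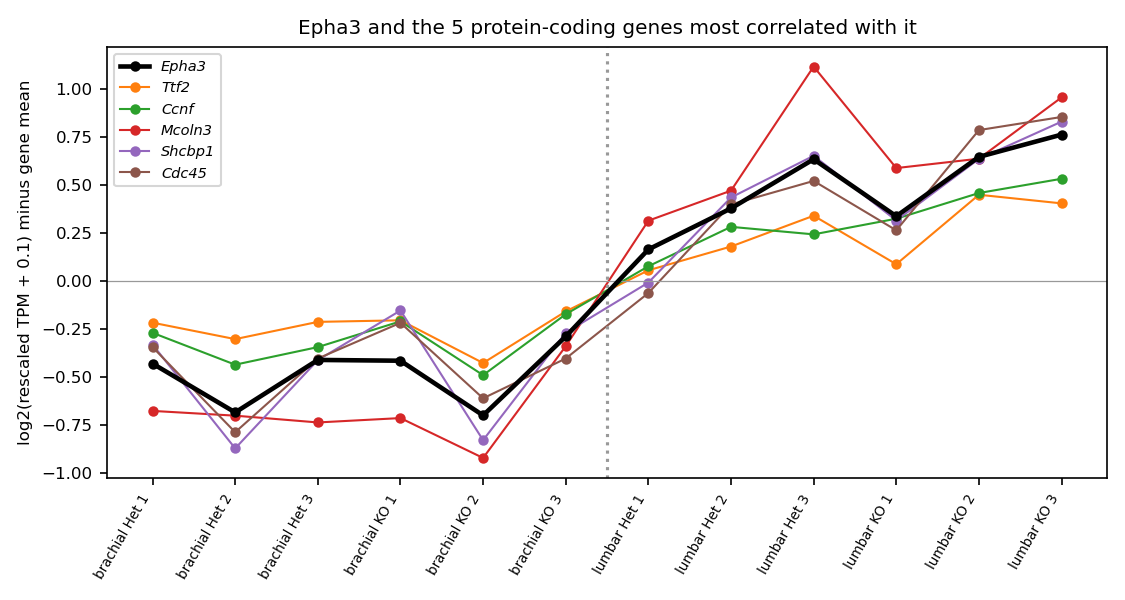
Level of *Epha3* (black) and of the 5 protein-coding genes most correlated with it, as log2(rescaled TPM + 0.1) minus the gene's mean (y axis), in the 12 libraries (x axis); the dotted line parts the brachial from the lumbar libraries. All 6 genes lie below their means in the brachial libraries, and *Epha3* is above its mean in every lumbar library.

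The second comparison, of *Isl2* KO with heterozygote at each level, asks which genes depend on *Isl2* in the cord of the forelimb and of the hindlimb. No member passed the threshold or an adjusted p of 0.05 at either level (limma), and none did at an unadjusted p under 0.05, so the count is 0 of 10 by each rule. An unadjusted p under 0.05 was reached under other settings by *Epha5* at the brachial level, without brachial KO replicate 1 (0.00409, limma), with the replicate block (0.0375, limma), with TPM as deposited (0.0394, limma) and with all 12 libraries in one fit (0.0499, limma). *Efna5* reached it at the brachial level without brachial KO replicate 1 (0.0443, limma), and at the lumbar level *Epha3* did with the replicate block (0.0278, limma) and *Efna3* without lumbar KO replicate 3 (0.0204, limma). The background of genes past the threshold was 3.08% in the brachial and 1.77% in the lumbar comparison. At an unadjusted p under 0.05 it was 13.9% and 4.86%, and at an adjusted p it was 0.00596% and 0%. The genotypes overlapped for all 10 members at both levels, while they did not for 20.1% of all genes in brachial and 9.94% in lumbar cord.

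At the brachial level the log2 differences ran from -0.04 for *Efna3* to 0.41 for *Efna5*, and 8 of 10 members were positive against 48.0% of all genes. *Epha5* was at 27.3, 32.0 and 30.8 TPM in the heterozygotes and 28.8, 37.9 and 43.7 in the KO libraries. Only 1 of the KO libraries lay within the range of the heterozygotes. The difference was 0.28 ± 0.15 (SE, limma, unadjusted p = 0.106, adjusted p = 0.398). It was 0.14 without brachial KO replicate 3 and 0.44 without brachial KO replicate 1 (adjusted p = 0.0943, limma). *Efna5*, a ligand of the ventral limb and of many brain regions, was at 4.05, 4.09 and 3.23 TPM in the heterozygotes and 3.11, 4.45 and 9.17 in the KO libraries, so 1 library set the mean. Without brachial KO replicate 3 its difference was -0.02 in place of 0.41, and without brachial KO replicate 1 it was 0.75 (unadjusted p = 0.0443, limma). Brachial KO replicate 3, the library that stood apart, had the highest brachial value of 5 members, *Epha3*, *Epha5*, *Epha6*, *Epha7* and *Efna5*.

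*Epha4* differed by 0.00 between the genotypes at the brachial level, with an interval from -0.14 to 0.15, at 107, 112 and 113 TPM in the heterozygotes and 111, 112 and 110 in the KO libraries. At the lumbar level it was at 111, 101 and 114 TPM in the heterozygotes and 109, 123 and 101 in the KO libraries, a difference of 0.03 with an interval from -0.18 to 0.24. Both intervals lie inside the threshold of 0.5. That did not hold for every abundant member: the interval of *Epha5* reached 0.63 at the brachial level and that of *Epha3* 0.52 at the lumbar level. For *Epha6* the intervals reached from -0.26 to 0.76 in brachial and from -1.01 to 0.46 in lumbar cord, so that changes of the size of the threshold were not detectable for this gene.

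At the lumbar level the differences ran from -0.27 for *Epha6* to 0.19 for *Epha3*, and 5 of 10 members were positive. *Epha3* had the largest lumbar difference among the more abundant members, 0.19 ± 0.14 (SE, limma, adjusted p = 0.999), and its interval reached from -0.14 to 0.52. It was 0.076 without lumbar Het replicate 1, 0.10 without lumbar KO replicate 3, 0.31 without lumbar Het replicate 3 and 0.31 without lumbar KO replicate 1. By in situ hybridization, the study reported *Epha3* as enriched in gluteus motor pools and reduced in *Isl2* KO. The values of bulk tissue do not resolve single motor pools. The remaining members lay between -0.13 for *Epha8* and 0.12 for *Efna4*. The summed receptors were 226 ± 11.2 TPM in KO and 219 ± 13.5 in heterozygote libraries (SD, n = 3, exact permutation p = 0.4), and at the brachial level 206 ± 9.95 and 196 ± 6.35 (exact permutation p = 0.3); 3 against 3 libraries cannot give a two-sided p below 0.1.

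The KO effects were then compared between the levels. No member passed the threshold, an adjusted p of 0.05 or an unadjusted p of 0.05 (limma), against 2.04% of genes past the threshold and 4.42% at an unadjusted p under 0.05. The value nearest to it was that of *Epha5*, whose KO effect was lower at the lumbar than at the brachial level by a log2 difference of -0.38 ± 0.18 (SE, limma, unadjusted p = 0.0565, adjusted p = 0.812). It was -0.54 without brachial KO replicate 1 and past the threshold, and -0.24 without brachial KO replicate 3. For *Epha3* the difference of the effects was 0.15, with an interval from -0.31 to 0.61.

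The other genes of the pathway were read from lists. Of the other class A genes *Epha1*, *Epha2*, *Epha10* and *Efna1*, 3 were tested and none passed the threshold in any comparison, and *Epha1* reached at most 0.122 TPM in any library. Of the 8 class B genes none passed the threshold, but *Ephb6*, a receptor without kinase activity, was lower at the lumbar level by an adjusted p (log2 difference -0.38, adjusted p = 0.00195, limma), as was *Ephb3* (-0.27, adjusted p = 0.0247, limma). Of 35 genes that act with Eph receptors, *Anks1b*, an adaptor protein, was lower at the lumbar level past the threshold (-0.61). By an adjusted p under 0.05 in limma, 2 of the 35 were higher at the lumbar level, *Vav3* and *Rock1*, and 5 were lower, *Fyn*, *Anks1b*, *Ptpro*, *Pik3r1* and *Ntrk2*, a share near the 18.5% of all genes. *Fyn* is a kinase recruited by Eph receptors and *Ptpro* a phosphatase known to act on them.

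*Chn1*, which encodes the GTPase regulator that EphA4 needs in motor axons, differed by 0.09 between the levels. *Ret*, the GDNF receptor that acts beside EphA4 in LMC axons, had a level difference of 0.36 (adjusted p = 0.0542, limma), and its partner *Gfra1* of -0.07. None of the genes of these 3 lists passed the threshold or an adjusted p of 0.05 between the genotypes at either level. At an unadjusted p under 0.05 the 35 partners held 5 genes in brachial and 3 in lumbar cord, and the 8 class B genes held 1 in brachial cord, *Efnb2*, a ligand of class B receptors (log2 difference 0.37, adjusted p = 0.357, limma). Over all genes this p was met by 13.9% in brachial and 4.86% in lumbar cord, so these counts lie near the background. *Gfra1* had a lumbar genotype difference of -0.24 (adjusted p = 0.999, limma), with its 3 KO libraries below its 3 heterozygotes. The same held for the partners *Chn2* and *Pik3r1*, while *Crkl* and *Rhoa* were higher in KO without overlap. Over all genes, 9.94% did not overlap between the genotypes in lumbar cord.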

How the data were processed

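According to the methods of the study, reads of stranded total RNA libraries were trimmed (Trimmomatic 0.38), mapped to mm10 (HISAT2 2.1.0, Bowtie2 2.3.4.1) and assembled per library (StringTie 2.1.3b). The deposited TPM values were scaled by the authors to gene length and library total, and the deposited FPKM values came from the same run. The deposited coverage values are the authors' mean read coverage per base of a gene. Small RNAs held 23.7% to 38.2% of TPM in a library, which moves all other values. TPM was therefore divided by median-of-ratios size factors (0.896 to 1.25), 0.1 was added, and limma 3.58.1 (R 4.3.3, with a trend) was run on the log2 values of genes with a mean of at least 0.5 TPM. P-values were adjusted over all genes (Benjamini-Hochberg). The fit was tested on simulated data. Fold changes are on the log2(TPM + 0.1) scale and understate those of low genes. Coverage divided by FPKM gives the aligned bases, and this quotient was within 1% of 1 constant for 96.0% to 97.0% of single-transcript genes. With no counts deposited, the counting error of single values is unknown. Permutation tests were two-sided and exact. RefSeq names matched 45679 identifiers, and the promoters are those of RefSeq. Whether counting used strand is not given in the sources used here, and *Epha5* holds the opposite-strand *Hmgn2-ps1* (38.3 TPM). All 10 members are named, and other genes by list, with *Ret*, *Gfra1* and *Chn1*. Members and lists were chosen with earlier results of these data known. Embryo sex as a covariate was added after the data were seen.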

Additional observations from a re-analysis of the deposited data

Results flagged for a closer look

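*Efna5* in brachial KO replicate 3 was at 9.17 TPM, far from the other 5 brachial libraries, of which the nearest was at 4.45 TPM. The gap took 0.779 of the range of the 6 brachial libraries. It was the only value to stand apart by Dixon's test among 20 sets of 6 libraries (10 members at 2 levels), where chance would mark about 1 in 20. The coverage behind *Efna5* was the lowest of the members, at most 1.31 reads over a base, and this library was the shallowest.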

How the results depend on the processing

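The tables hold no counts, so DESeq2 and edgeR were not run. The number of members past the threshold between the levels was 2, and 1 with a pseudocount of 1 or in heterozygote libraries alone, 3 with a pseudocount of 0.001, TPM as deposited or quantile normalization, 4 in KO libraries alone, and 2 to 4 with each library left out (4 without brachial Het replicate 1). Over all genes, 1275 of 16620 passed it in heterozygote libraries alone and 1949 of 16789 in KO libraries alone. Between the genotypes at the brachial level it was 0, and 0 to 1 with a library left out (*Efna5* without brachial KO replicate 1), and at the lumbar level 0 in every alternative. For the difference of the KO effects it was 0, and 1 with TPM as deposited and 0 to 1 with a library left out (*Epha5* in both cases). The level difference of *Epha3* was 0.84 to 1.05 over its alternatives, and 0.92 to 1.04 with a library left out, past the threshold in each; that of *Efna4* had an adjusted p (limma) of 0.0105 to 0.150, and that of *Epha6* of 0.0190 to 0.240. With TPM as deposited the median log2 difference of all genes was 0.16 at the brachial level in place of -0.01, -0.13 between levels in place of 0.01, and -0.17 in the difference of the KO effects in place of 0.00. With it the summed receptors differed between levels by 0.0066 and the summed ephrins by -0.035. No call was made for the following values, which turned direction. With TPM as deposited these were, at the brachial level, *Efna3* 0.14 and *Efna4* 0.14; at the lumbar level *Efna2* 0.0013; between levels *Epha7* -0.051, *Efna2* -0.14 and *Efna3* -0.076; and in the difference of the KO effects *Epha3* -0.016, *Epha4* -0.14, *Efna3* -0.045 and *Efna4* -0.010. With coverage in place of TPM, *Efna3* was -0.13 at the lumbar level, -0.069 between levels and -0.028 in the difference of the KO effects, and *Efna5*, and *Epha6* at the lumbar level, fell under the filter. With quantile normalization *Efna2* was -0.017 between levels and *Epha4* -0.044 in the difference of the KO effects. With embryo sex as a covariate, *Efna2* was 0.0029 and *Efna5* -0.12 at the lumbar level. In KO libraries alone *Efna2* was -0.058 between levels. With each library left out in turn, members that changed sign ranged at the brachial level as *Epha3* -0.049 to 0.16, *Epha4* -0.021 to 0.021, *Epha8* -0.0094 to 0.34, *Efna2* -0.0074 to 0.20, *Efna3* -0.11 to 0.041, *Efna4* -0.17 to 0.082, *Efna5* -0.016 to 0.75. At the lumbar level they ranged as *Epha4* -0.050 to 0.094, *Epha6* -0.45 to 0.064, *Epha7* -0.072 to 0.057, *Epha8* -0.25 to 0.0015, *Efna2* -0.12 to 0.11, *Efna3* -0.027 to 0.24, *Efna5* -0.13 to 0.17. Between levels they were *Epha4* -0.055 to 0.0092, *Efna2* -0.043 to 0.063, and in the difference of the KO effects *Epha4* -0.054 to 0.090, *Efna2* -0.23 to 0.0015, *Efna5* -0.73 to 0.034. The cause of these shifts was not tested. Over all genes, 517 passed the threshold at the brachial level and 1258 with TPM as deposited, 341 with a pseudocount of 1 and 793 with no filter, 1382 without brachial KO replicate 1, 278 without brachial Het replicate 3 and 281 without brachial KO replicate 3. At the lumbar level 295 passed, and 179 with a pseudocount of 1, 620 with no filter and 451 without lumbar KO replicate 2; between levels 1724, and 1067 with a pseudocount of 1 and 2622 with no filter; in the difference of the KO effects 340, and 760 with no filter, 895 without brachial KO replicate 1, 513 without brachial Het replicate 2, 537 without lumbar Het replicate 3 and 553 without lumbar KO replicate 1. Same-numbered libraries did not deviate together in every pair (correlations of -0.214 to 0.338), so the numbers do not pair the samples throughout. Whether some brachial and lumbar libraries of the same number share an embryo is not known. With the replicate block the members past the threshold were 0, 0, 2 and 0, as without it, and *Epha5* at the brachial level (0.0375) and *Epha3* at the lumbar level (0.0278) came to an unadjusted p (limma) under 0.05. Without lumbar KO replicate 3, *Efna3* did so at the lumbar level (0.0204, limma).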
